A study of Rattus norvegicus with 6 samples.

Results

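Expression of 9 interferon-stimulated genes was examined in the sciatic nerve of uncrushed rats and of other rats after a crush injury. They were Irf7, Stat2, Isg15, Usp18, Ifit2, Ifit3, Mx1, Mx2 and Rsad2. The genes were taken by name from the gene table. All 9 were among its 30957 genes, and all 9 passed the filter on low counts that kept 15195 genes. The animals were 1-month-old Sprague-Dawley rats in 3 groups, namely uncrushed controls, rats sampled at day 4 after the crush (D4) and rats sampled at day 7 (D7). In D4 and D7 the left sciatic nerve was exposed under anesthesia, clamped with hemostatic forceps and released. Control rats had the operation without the clamp according to the study's methods, while the sample labels name them normal controls. Total RNA from the nerves of 2 rats per group was sequenced after removal of ribosomal RNA, with 1 library per rat, named a or b. Rats of the same letter are not paired, and every p-value measures the spread between 2 rats per group.

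Type I and type III interferons are secreted proteins that warn cells of viral nucleic acid or tissue damage. Their receptors activate the kinases Jak1 and Tyk2, which activate Stat2. Stat2 joins Irf9 in a complex that enters the nucleus and binds the interferon-stimulated response element (ISRE) in the promoters of many genes. The products of these genes block viral replication, raise the sensitivity of the cell to further interferon and, in part, switch the response off again. Interferon gamma acts mainly through another element, the gamma activated site (GAS). In a crushed nerve, axons distal to the clamp degenerate, myelin is cleared and macrophages enter the tissue.

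The libraries held between 18727255 and 25350886 fragments counted on genes. Levels are given as CPM, the count of a gene scaled to the size of its library, with the TMM factors of edgeR, which ranged from 0.863 to 1.08. Levels of different genes are compared only with the deposited FPKM, which is also scaled to gene length. A gene was called when the quasi-likelihood test of edgeR gave an adjusted p-value under 0.05 over all 15195 genes and the change was at least 2-fold. The median gene differed 1.17-fold between the 2 control libraries, 1.10-fold between the D4 libraries and 1.14-fold between the D7 libraries. Schwann cell markers were present in every library, with a summed level of at least 4769.7 CPM. Library D7 a stood apart by its low adipocyte and red blood cell signal, with Adipoq at 2.30 CPM against 185 in D7 b and Hbb at 16.7 CPM against 117.

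The promoters of the members were read to show what the genes share upstream. RefSeq windows of 300 bases on GRCr8, from 250 bases before to 50 bases after the transcription start, were matched by symbol for 5 of the 9 members. Isg15, Ifit2, Mx2 and Usp18 had no match. The ISRE core was searched as GAAANNGAAA on both strands, which reads TTTCNNTTTC on the other strand. It was found in the windows of Irf7, Ifit3 and Rsad2 and in neither Mx1 nor Stat2. Thus 3 of 5 members held it, against 3.92% of all 33469 windows (1312 windows) and 4.12% of all genes with a window. The GAS core, TTCNNNGAA, was found in 0 of the 5 member windows and in 8.87% of all windows. The 250 bases before the start are shown for the 3 genes with a match, 5′ to 3′ in the direction of the gene, with the ISRE core in capitals. They lie at chr1:205800024-205800273, minus strand (Irf7), at chr1:241527076-241527325, plus strand (Ifit3) and at chr6:48788121-48788370, minus strand (Rsad2).
Irf7: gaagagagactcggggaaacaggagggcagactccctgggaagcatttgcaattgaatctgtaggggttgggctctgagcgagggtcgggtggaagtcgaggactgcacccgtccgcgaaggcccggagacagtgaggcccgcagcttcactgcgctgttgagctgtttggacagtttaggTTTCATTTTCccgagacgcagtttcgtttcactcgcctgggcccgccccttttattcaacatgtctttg
Ifit3: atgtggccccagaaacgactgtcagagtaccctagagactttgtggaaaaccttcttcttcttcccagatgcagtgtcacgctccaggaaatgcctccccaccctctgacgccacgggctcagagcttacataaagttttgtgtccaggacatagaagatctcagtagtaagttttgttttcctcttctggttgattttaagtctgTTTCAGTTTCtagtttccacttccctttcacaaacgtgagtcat
Rsad2: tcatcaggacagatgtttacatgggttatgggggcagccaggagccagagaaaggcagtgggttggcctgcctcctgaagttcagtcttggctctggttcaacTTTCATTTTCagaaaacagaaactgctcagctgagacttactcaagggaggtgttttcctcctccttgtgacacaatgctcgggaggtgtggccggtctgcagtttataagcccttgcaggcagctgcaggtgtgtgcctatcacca
Counted from the start, the core spans bases -69 to -60 in Irf7, -44 to -35 in Ifit3 and -147 to -138 in Rsad2. Irf7 and Rsad2 hold the same 10 letters, TTTCATTTTC, and Ifit3 holds TTTCAGTTTC. The match is a description of the letters and does not show that a factor binds there. Among other interferon-stimulated genes, 24 of 37 genes with a window held the ISRE core, as did 7 of 10 genes known above all as targets of interferon gamma. The GAS core was held by 8 of those 37 genes and by 5 of those 10, against 9.39% of all genes with a window.

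In the control nerves the members ranged from 4.03 to 33.8 in mean deposited FPKM. Their order was Mx2 (33.8), Irf7 (33.3), Stat2 (20.8), Ifit2 (13.4), Usp18 (9.49), Mx1 (8.72), Isg15 (4.99), Ifit3 (4.12) and Rsad2 (4.03). Of the neighbours in this order, only Stat2 and Ifit2, with FPKM ranges of 19.0 to 22.6 and 12.4 to 14.3, and Ifit2 and Usp18, with 8.47 to 10.5 for the latter, did not overlap between the 2 rats. Mx2 and Irf7 could not be ordered in the controls, since each ran from 16.3 FPKM in one rat to over 50 in the other (51.4 for Mx2 and 50.2 for Irf7). On D4 Irf7 led, with 41.5 and 59.7 FPKM, above Mx2 with 31.5 and 31.8 FPKM and Stat2 with 20.6 and 22.4 FPKM. On D7 Mx2 and Stat2 had the highest mean FPKM, 16.4 and 16.1, with overlapping ranges, and Rsad2 the lowest, 1.74.

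No member was called higher after the crush. At D7, 4 of 9 members were called lower than in the control nerves, namely Isg15, Usp18, Ifit2 and Rsad2, by 2.75-fold to 3.28-fold. At D4 only Rsad2 was called lower, by 2.16-fold, and between D4 and D7 only Usp18 was, by 2.20-fold. The values of each gene in the 6 libraries follow by the role of its product. All of these are bulk measurements of a nerve, in which fewer cells of a type and less RNA per cell cannot be told apart.

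**Figure D1:**
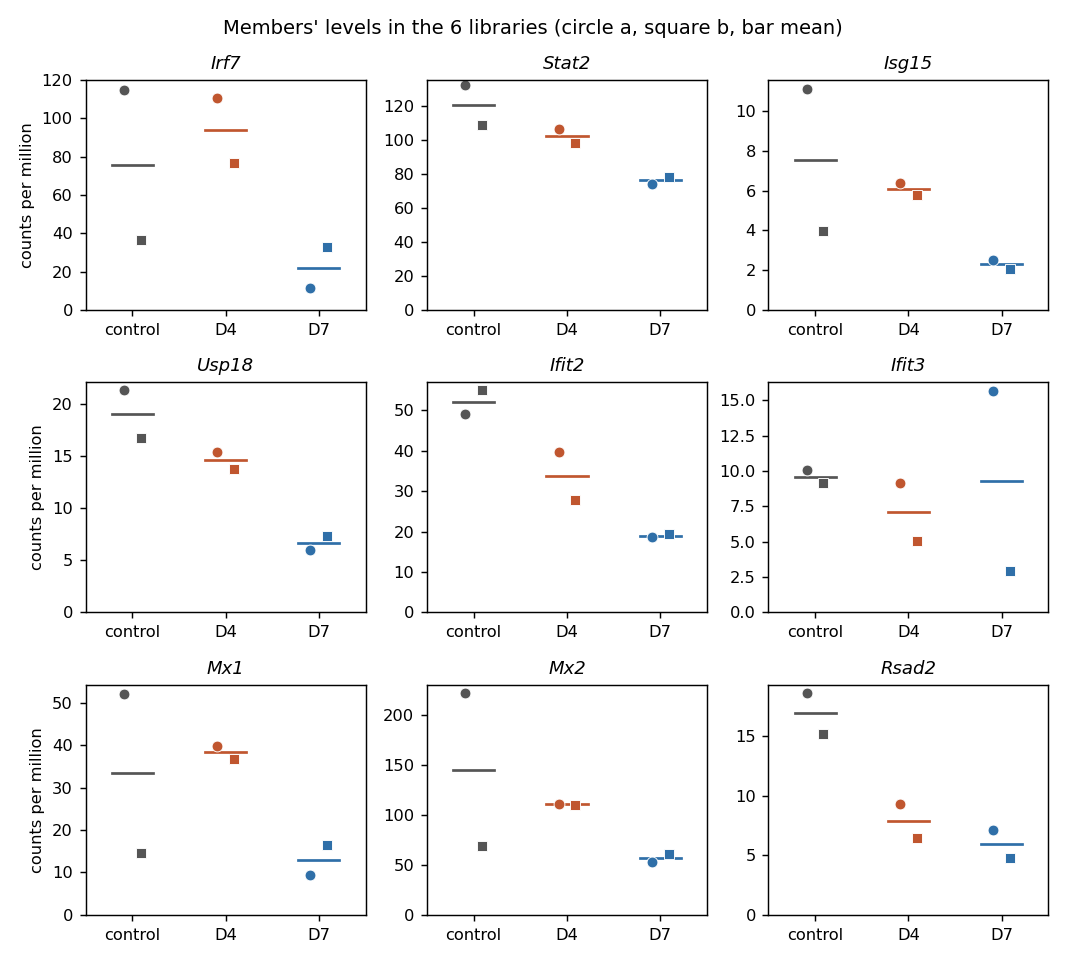
Levels of the 9 members in CPM (vertical axes, linear from 0) in the control, D4 and D7 groups. Circles are library a, squares library b, and bars the mean of the 2 libraries. The 2 control libraries lie far apart for Irf7, Isg15, Mx1 and Mx2 and close together for the other members, and both D7 libraries are the lowest for Irf7, Stat2, Isg15, Usp18, Ifit2 and Mx2. For Ifit3, library D7 a is the highest of the 6 at 15.6 CPM.

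Irf7 is the transcription factor that amplifies interferon production once the pathway is active. The gene lies on chromosome 1 at 214248837 to 214252456 of Rnor_6.0, the build of all gene positions given here, and one end overlaps the span of Phrf1, so fragments there are uncertain. It measured 115 and 36.3 CPM in control a and control b, 111 and 76.7 CPM in D4, and 11.4 and 32.9 CPM in D7. Both D7 libraries were below all others, while the D4 libraries fell within the range of the controls. The fold change against control was 3.42-fold lower at D7 (log2 fold change -1.78 ± 0.67 SE, edgeR adjusted p = 0.0827) and did not pass the threshold. Between D4 and D7 it was 4.23-fold lower, the largest difference of the 9 members, and also did not pass (adjusted p = 0.132). The 2 rats of a group differed 3.16-fold in the controls and 2.88-fold at D7. Without control b, the low control, the D7 value was called (log2 fold change -2.38, adjusted p = 0.0311), and it was called without D7 b as well (-2.73, adjusted p = 0.0477). Without control a it shrank to -0.72 (adjusted p = 0.393) and without D7 a to -1.18 (adjusted p = 0.268).

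Stat2 carries the signal from the type I receptor to the nucleus. Located on chromosome 7 at 2691369 to 2707741, it differed at most 1.21-fold between the 2 rats of a group, with 133 and 109 CPM in the controls, 107 and 98.2 CPM in D4, and 74.2 and 78.5 CPM in D7. The 3 groups did not overlap, with control highest and D7 lowest. At D7 the level was 1.59-fold lower than in control, which passed the test but not the 2-fold limit (log2 fold change -0.67 ± 0.12 SE, adjusted p = 0.00821). The D4 difference of 1.18-fold did not pass (adjusted p = 0.149).

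Isg15 and Usp18 form a pair of opposed activities. Isg15 is a small ubiquitin-like protein that is attached to other proteins, and Usp18 removes it and also blocks the type I receptor, which ends the response. Isg15, on chromosome 5 at 173624310 to 173626248, had the lowest counts of the members, between 42 and 216 fragments. Its level was 11.1 and 3.98 CPM in the controls, 6.40 and 5.76 CPM in D4, and 2.54 and 2.08 CPM in D7. Both D7 libraries were below all others, and the D4 libraries lay between the 2 controls. It was called lower at D7 by 3.28-fold (log2 fold change -1.71 ± 0.49 SE, adjusted p = 0.0366). That call was lost in 9 of 16 other settings, among them the fits without control a (log2 fold change -0.78, adjusted p = 0.0907), without D4 a or D4 b (adjusted p = 0.0726 and 0.0727), and without D7 a or D7 b (adjusted p = 0.108 and 0.128).

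Usp18, on chromosome 4 at 153805993 to 153834430, measured 21.3 and 16.8 CPM in the controls, 15.4 and 13.8 CPM in D4, and 5.96 and 7.32 CPM in D7. The groups did not overlap, and the 2 rats of each group were within 1.27-fold of each other. The gene was called lower at D7 against control by 2.87-fold (log2 fold change -1.52 ± 0.19 SE, adjusted p = 0.0022). It was also the one member called between the injured groups, 2.20-fold lower at D7 than at D4 (log2 fold change -1.14 ± 0.19 SE, adjusted p = 0.0346). Against control the D4 level was 1.305-fold lower and did not pass (adjusted p = 0.133). Leaving out an injured library kept the log2 fold change against D4 near its size, at -1.05 without D4 a, -1.22 without D4 b, -1.01 without D7 a and -1.29 without D7 b. None of these fits called it (adjusted p = 0.229, 0.191, 0.176 and 0.0505), and without D4 a or D4 b edgeR called 0 of all genes between D4 and D7.

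Ifit2 and Ifit3 encode proteins with tetratricopeptide repeats that restrain translation of viral RNA. They are neighbours on chromosome 1, at 252894663 to 252900726 and at 252906234 to 252911373. Ifit2 measured 49.1 and 55.1 CPM in the controls, 39.6 and 27.8 CPM in D4, and 18.5 and 19.3 CPM in D7, and the 3 groups did not overlap. The D7 level was called lower by 2.75-fold (log2 fold change -1.46 ± 0.18 SE, adjusted p = 0.00226). At D4 it was 1.55-fold lower, which passed the test but not the 2-fold limit (log2 fold change -0.63 ± 0.18 SE, adjusted p = 0.0312). Leaving out 1 library moved this D4 value between -0.91 (without D4 a) and -0.40 (without D4 b). The smallest change over all alternatives was -0.34, and the test was not passed in every one of them.

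Ifit3 was the member that differed most between the 2 D7 rats. The controls held 10.04 and 9.16 CPM and D4 held 9.15 and 5.02 CPM, whereas D7 a held 15.6 CPM and D7 b 2.92 CPM, from 333 and 59 fragments. The D7 libraries were thus the highest and the lowest of all 6, a 5.36-fold difference that 1.36% of genes reached in this group. No contrast passed (adjusted p = 0.643 for D4 against control, 0.964 for D7 against control and 0.78 for D7 against D4). Without D7 a the gene was called lower at D7 (log2 fold change -1.69, adjusted p = 0.0467), and without D7 b the sign was the opposite (0.70, adjusted p = 0.206). A neighbouring gene, Ifit1lb at 252914684 to 252922486, chosen after its values were seen, also differed between these libraries, with 180 fragments in D7 a and 32 in D7 b. Ifit2 did not, with 395 and 391 fragments, and Ifit1, of the same family, had 196 and 264. The low adipocyte and blood signal of D7 a stands beside this difference, and its part in the result was not tested. Genes of this family are similar in sequence, so fragments may be divided uncertainly among them.

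Mx1 and Mx2 are dynamin-like GTPases that trap viral components, and they lie close together on chromosome 11, at 37891156 to 37914983 and at 38035450 to 38059950. Mx1 measured 52.1 and 14.5 CPM in the controls, 39.9 and 36.7 CPM in D4, and 9.48 and 16.5 CPM in D7. The D7 libraries were below both D4 libraries but overlapped the controls, because control b was as low as D7. Mx1 was 2.58-fold lower at D7 than in control (log2 fold change -1.37 ± 0.58 SE, adjusted p = 0.112) and 2.95-fold lower than at D4 (adjusted p = 0.169), and neither passed. The products of Mx1 and Mx2 are alike in sequence, and fragments shared by the 2 genes are uncertain.

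Mx2 measured 222 CPM in control a and 68.7 CPM in control b. The D4 libraries were nearly equal, 111 and 109.8 CPM, and D7 held 53.2 and 61.1 CPM. Both D7 libraries were the lowest of the 6, while D4 lay between the controls. The difference of 2.54-fold between D7 and control did not pass (log2 fold change -1.35 ± 0.49 SE, adjusted p = 0.0756), nor did that of 1.93-fold between D7 and D4 (adjusted p = 0.29). Both genes depended on which control library was used. Without control b, D7 was called lower for Mx1 (log2 fold change -2.01, adjusted p = 0.00764) and Mx2 (-1.96, adjusted p = 0.00084), and D4 lower for Mx2 (-1.01, adjusted p = 0.00297). Without control a, the D7 difference shrank to -0.16 for Mx1 (adjusted p = 0.727) and -0.27 for Mx2 (adjusted p = 0.157), D4 was called higher for Mx1 (1.40, adjusted p = 0.0274), and Mx2 changed sign at D4 (0.68, adjusted p = 0.0124).

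Rsad2, which encodes viperin, an enzyme that makes a chain-terminating nucleotide, was the one member called at both times. It lies on chromosome 6 at 45655954 to 45669148. Its level was 18.6 and 15.2 CPM in the controls, 9.28 and 6.43 CPM in D4, and 7.14 and 4.80 CPM in D7. Both injured groups were below both controls, and D4 and D7 overlapped. It was lower by 2.16-fold at D4 (log2 fold change -1.11 ± 0.27 SE, adjusted p = 0.0195) and by 2.83-fold at D7 (log2 fold change -1.50 ± 0.28 SE, adjusted p = 0.0089). The D4 call was lost without control a (adjusted p = 0.072), without D4 b (adjusted p = 0.113) and with library totals in place of TMM factors, where the change was under 2-fold (log2 fold change -0.82, adjusted p = 0.0454).

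Counted over the 9 members, D4 against control gave 1 gene called lower and 0 called higher. Of all genes tested 10.7% were called lower and 11.2% higher in this comparison. The median log2 fold change of the members was -0.38, and that of all genes -0.04. In 5 of 9 members both D4 libraries were below both controls, as in 39.4% of all genes. Scaling by library totals alone moved the median of all genes at D4 to 0.25 and the calls from 1627 lower and 1706 higher to 1077 lower of 3507, and under it 0 members were called and 2 of 9 had both D4 libraries below the controls.

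At D7 4 of 9 members were called lower and 0 higher, against 9.02% and 9.83% of all genes. The median log2 fold change of the members was -1.46, that of all genes 0.01, and all 9 members had a negative value, that of Ifit3 being -0.05. Both D7 libraries were below both controls in 7 of 9 members, the exceptions being Ifit3 and Mx1, and in 34.7% of all genes. With library totals the median of all genes was 0.31, that of the members -1.17, and 3 members stayed called (Ifit2, Rsad2 and Usp18), with 930 of 3145 calls over all genes being lower. Without control b 7 members were called lower. Without control a 3 were, the members' median shrank to -0.72, and Ifit3 was at 0.02.

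Between D4 and D7, 1 of 9 members was called lower and 0 higher, where 0.494% of all genes were called lower and 1.68% higher. The members' median log2 fold change was -0.95, against 0.01 for all genes. In 7 of 9 members, all but Ifit3 and Rsad2, both D7 libraries were below both D4 libraries, as in 29.1% of all genes. In none of the 3 comparisons did a member pass an unadjusted p-value of 0.05 in the higher direction by edgeR, and DESeq2 called none higher. In the lower direction 2, 7 and 6 of the 9 members had an unadjusted p-value under 0.05 at D4, at D7 and between them. Of all 15195 genes 4159, 3602 and 1755 did so. The 3 comparisons share libraries, so their values are not independent of each other.

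**Figure D2:**
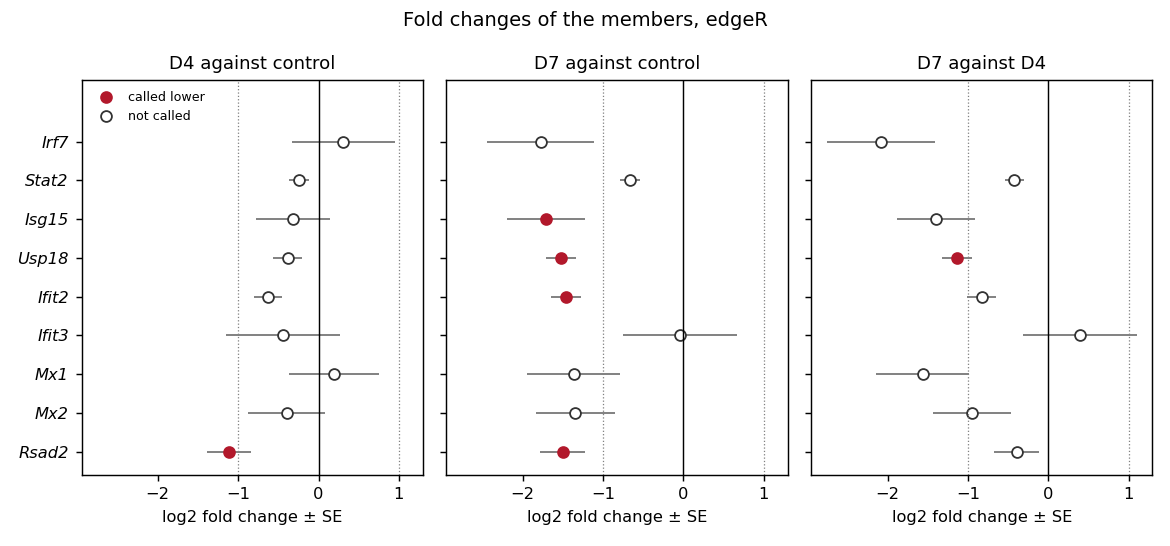
Log2 fold changes of the 9 members (points, horizontal axes) with the standard error (bars) in the 3 comparisons, from 1 edgeR fit of 6 libraries. Filled red points were called lower, open points were not called, and dotted lines mark a 2-fold change. The D7 values against control range from -1.78 for Irf7 to -0.05 for Ifit3, and the widest errors belong to Ifit3, Irf7 and Mx1.

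The members divided by how far the 2 control rats lay apart. Irf7, Isg15, Mx1 and Mx2 were 2.80-fold to 3.59-fold higher in control a than in control b, a difference reached by 2.05% to 3.48% of genes. In the other 5 members the larger control was at most 1.27-fold above the smaller. Thus 4 of 9 members differed at least 2-fold between the controls, against 7.78% of all genes, while 0 of 9 did so at D4 (4.40% of all genes) and 2 of 9 at D7 (6.64%), namely Irf7 and Ifit3. Library a held the higher level in 8 of 9 members in the controls, 9 of 9 at D4 and 3 of 9 at D7. Among 40 further interferon-stimulated genes it was higher in 35 in the controls, in 36 at D4 and in 4 at D7, whereas over all genes library a was higher in 52.7%, 47.4% and 49.6%. Most genes of the list thus differed in the same direction between 2 rats of one group, in the uninjured nerve too. Within a group every ratio rests on the same 2 libraries and their scaling, so the genes are not independent of each other. No label names a cause for the difference between the rats.

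**Figure D3:**
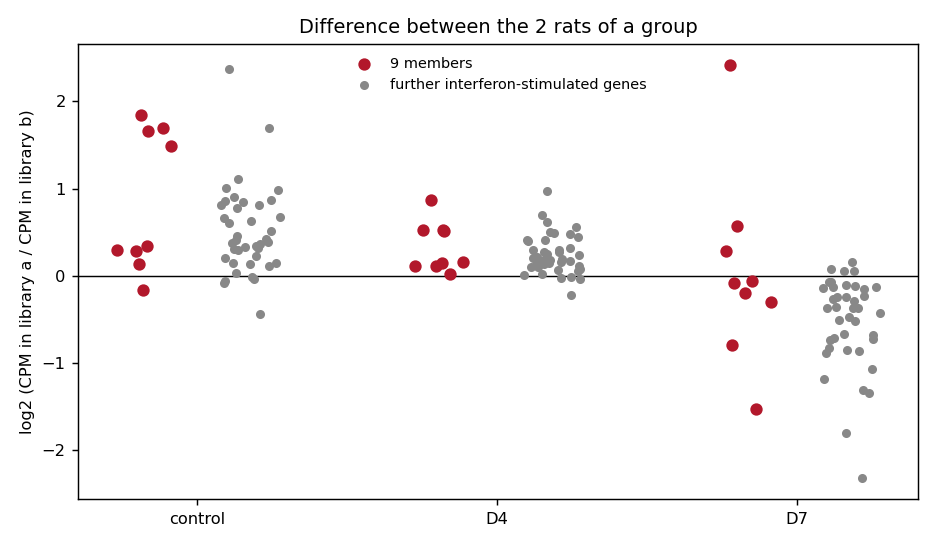
Log2 ratio of the CPM in library a to that in library b (vertical axis) for the 9 members (red) and the further interferon-stimulated genes with counts in both libraries (grey), within the control, D4 and D7 groups. Points sit mostly above 0 in the controls and D4 and mostly below 0 in D7, with Ifit3 alone far above 0 in D7 at a 5.36-fold ratio.

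The other genes of the pathway are given by role, from the ligands to the targets. At the source of the pathway, 9 interferon ligands were in the table, among them Ifnb1, Ifng and Ifna4, and all had 0 fragments in every library. Only 19852 of the 30957 genes had a fragment in at least 1 library. A count of 0 does not show that a transcript was absent from the nerve. Of the 6 receptor chains, 3 were called higher at D4 and 3 at D7, and at each time both injured libraries exceeded both controls in 6 of 6. Over all genes 11.2% were called higher at D4 and 9.83% at D7, and 36.9% and 37.2% had both injured libraries above both controls. Ifnlr1, the chain specific to type III interferon, was 2.72-fold higher at D4 (adjusted p = 0.000699), and Il10rb, its partner shared with the interleukin 10 receptor, 3.07-fold (adjusted p = 0.00108). Ifngr2, a chain of the interferon gamma receptor, held 21.7 and 20.7 CPM in the controls and 52.2 and 53.7 CPM at D7 (2.497-fold higher, adjusted p = 0.000448).

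Of the JAK-STAT core, which includes Jak1 and Tyk2, 0 of 5 genes were called in any comparison by edgeR or DESeq2. By edgeR 3, 3 and 1 had an unadjusted p-value under 0.05 at D4, at D7 and between them, as had 8088, 7361 and 3754 of all 15195 genes. Among 14 sensors of nucleic acid and their adaptors, 5 were called higher at D4, and 1 was called higher and 1 lower at D7. The shares of all genes were 11.2% higher at D4, and 9.83% higher and 9.02% lower at D7. Aim2, a sensor of cytosolic DNA, rose from 0.46 and 0.42 CPM in the controls to 1.97 and 2.08 CPM at D7 (4.52-fold, adjusted p = 0.00555). Tmem173, which encodes STING, was 3.36-fold higher at D4 (adjusted p = 0.0112), a call lost without D4 a (adjusted p = 0.0523) or D4 b (adjusted p = 0.0613), as was that of Aim2 at D4 (adjusted p = 0.0548 and 0.0516). Dhx58, the regulator LGP2 of the RNA sensors, was 2.21-fold lower at D7 (adjusted p = 0.0463), and this call was lost without any 1 library other than D7 b, at adjusted p between 0.0515 and 0.159.

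Of the 7 other interferon regulatory factors, 2 were called higher at both times, where 11.2% of all genes were at D4 and 9.83% at D7. Irf8, a factor of macrophages and other myeloid cells, held 7.21 and 10.7 CPM in the controls, 58.8 and 56.7 CPM at D4 and 50.7 and 55.4 CPM at D7, all injured libraries being above the controls (6.46-fold at D4, adjusted p = 0.000255). Irf5, also a factor of myeloid cells, was 2.69-fold higher at D4 (adjusted p = 0.000695) and 2.10-fold at D7 (adjusted p = 0.00272). Of 7 genes listed as brakes on the response, 2 were called higher at both times, and 1, Isg20, lower at D7. The shares of all genes called higher are those just given, and 9.02% were called lower at D7. Socs3, an inhibitor of cytokine receptor signalling, held 3.04 and 5.19 CPM in the controls and 30.5 and 23.8 CPM at D7 (6.64-fold higher, adjusted p = 0.000985). Ptpn6, the phosphatase SHP-1 of blood cells, was 3.55-fold higher at D4 (adjusted p = 0.000565) and 2.48-fold at D7 (adjusted p = 0.0025). Isg20, an interferon-induced exonuclease that degrades viral RNA and is an effector rather than a brake, was 2.45-fold lower at D7 (adjusted p = 0.0294), a call that was lost whichever library was left out (adjusted p between 0.057 and 0.122).

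The 40 further interferon-stimulated genes tested divided at D4, with 4 called higher and 1 lower and a median log2 fold change of 0.23. The share called higher was near the 11.2% of all genes, of which 10.7% were called lower. At D7 1 was called higher and 9 lower, with a median of -0.53, and 23 of 40 had both D7 libraries below both controls, where 9.02% of all genes were called lower and 34.7% had both D7 libraries below. Between D4 and D7 2 were called lower and 0 higher, with a median of -0.71, where 0.494% of all genes were called lower and 1.68% higher. In that comparison 39 of 40 had a negative value, the exception being Ifitm1. Both D7 libraries were below both D4 libraries in 36 of 40 (29.1% of all genes, with 31.5% having them above). By edgeR 28 of 40 were lower at an unadjusted p-value under 0.05, as were 1755 of all 15195 genes. DESeq2 called 11 of the 40 lower between D4 and D7, and 189 of all 15195 genes.

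Among them, Ifit1, a relative of Ifit2, held 55.7 and 30.7 CPM in the controls, 31.5 and 22.5 CPM at D4 and 9.20 and 13.1 CPM at D7 (3.89-fold lower at D7, adjusted p = 0.00734). Rtp4 was 3.66-fold lower at D7 (adjusted p = 0.0108). Herc6, a ligase that attaches Isg15 in rodents, was the 1 gene called lower at D4 (2.19-fold, adjusted p = 0.0389), a call lost without control a, D4 a or D4 b (adjusted p = 0.153, 0.0638 and 0.19). The oligoadenylate synthetase Oas3 and the membrane protein Ifitm1 were among the 4 called higher at D4, by 4.92-fold (adjusted p = 0.0063) and 6.76-fold (adjusted p = 0.00166), the others being Lgals3bp and Shisa5. Ifitm1 was the only one called higher at D7, with 7.11 and 9.59 CPM in the controls and 71.2 and 63.9 CPM at D7 (8.11-fold, adjusted p = 0.00168). Oasl, with 6.13 and 4.58 CPM in the controls, fell from D4 to D7 from 10.02 and 8.31 CPM to 2.07 and 2.97 CPM (3.64-fold lower, adjusted p = 0.0285). Oas1k fell from 15.9 and 15.1 CPM to 4.46 and 6.18 CPM (2.91-fold, adjusted p = 0.029). Without D4 a, D4 b or D7 a neither was called (adjusted p between 0.141 and 0.209), with log2 fold changes of -1.33 to -1.58 for Oas1k and -1.63 to -1.99 for Oasl.

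Of 10 tested genes known above all as targets of interferon gamma, 4 were called higher at D4, 2 were called higher at D7, and 2 were called lower at D7 than at D4. The shares of all genes were 11.2%, 9.83% and 0.494%, in the same order. Gbp2, a guanylate-binding GTPase, held 67.0 and 39.7 CPM in the controls, 318 and 386 CPM at D4 and 136 and 149.8 CPM at D7. Its rise at D4 was 6.59-fold (adjusted p = 0.000615), and it was still 2.67-fold above control at D7 (adjusted p = 0.00731) and 2.46-fold below D4 (adjusted p = 0.0447). Gbp4 held 12.5 and 13.5 CPM at D4 and 2.63 and 2.42 CPM at D7 (5.13-fold lower, adjusted p = 0.0206). Between D4 and D7 neither was called without D4 a, D4 b or D7 a, nor Gbp2 without D7 b (adjusted p between 0.0909 and 0.244), with log2 fold changes of -1.16 to -1.43 for Gbp2 and -2.30 to -2.43 for Gbp4. Cxcl10, a chemokine for T cells, was 4.18-fold higher at D4 (adjusted p = 0.0434), which was lost without control b, D4 a, D4 b or D7 b (adjusted p between 0.0514 and 0.184). Ciita, the activator of class II antigen presentation genes, was 3.05-fold higher at D7 (adjusted p = 0.000959).

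**Figure D4:**
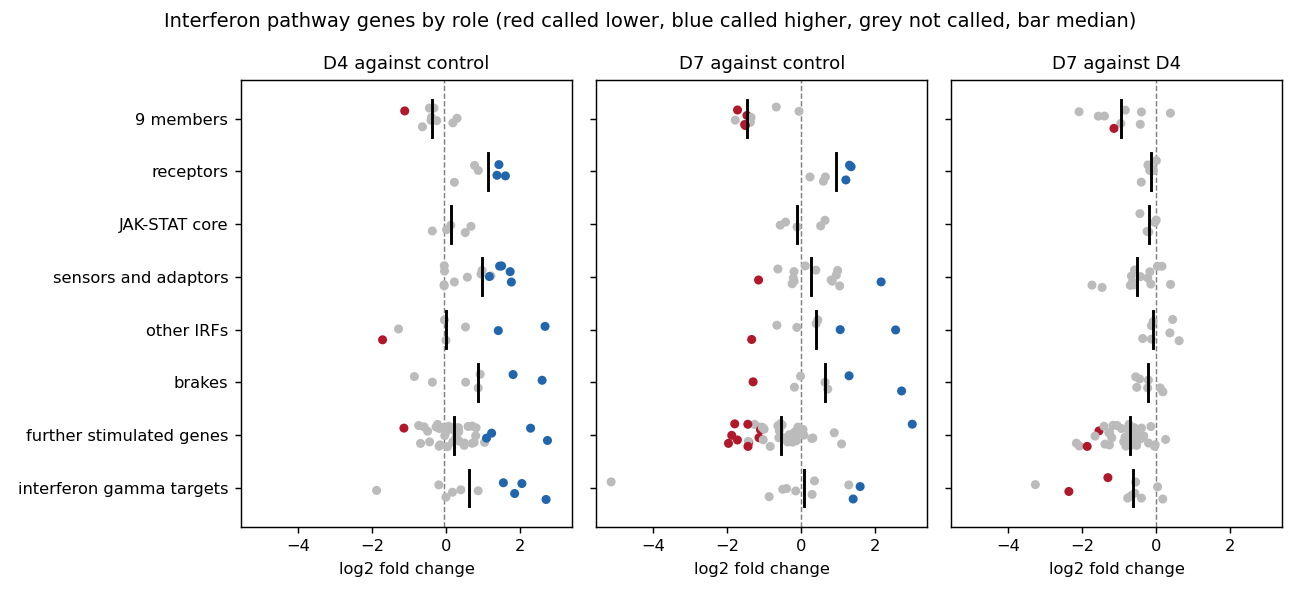
Log2 fold changes (horizontal axes) of the 9 members and of the tested genes of 7 pathway lists in the 3 comparisons. Each point is a gene, red when called lower, blue when called higher and grey when not called, black bars are list medians, and the dashed line is the median of all 15195 genes. Receptors lie to the right of 0 at D4 and D7 (medians 1.14 and 0.94). Of the members, 7 of 9 lie to the left at D4 and 9 of 9 at D7 (medians -0.38 and -1.46).

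Cell type markers changed with the injury alongside these genes. For comparison, 11.2% of all genes were called higher and 10.7% lower at D4, and 9.83% higher and 9.02% lower at D7. The 9 macrophage markers were all called higher at D4 and 7 of them at D7, and their summed level was 523 to 552 CPM in the controls, 2058 to 2076 CPM at D4 and 1456 to 1644 CPM at D7. The 7 Schwann cell markers summed to between 71442 and 104341 CPM in the controls, 4769.7 to 5292 CPM at D4 and 11772 to 18489.7 CPM at D7, with 5 called lower at D4 and 4 at D7. The sums of T, B and NK cell markers were 31.4 to 33.9, 89.8 to 101 and 103 CPM in the 3 groups, with 5 of 7 tested called higher at D4 and 5 at D7, and 1 lower at D4. Plasmacytoid dendritic cells are a main source of type I interferon, and their 4 markers summed to 10.9 to 20.0 CPM, 18.7 to 26.5 CPM and 18.4 to 29.2 CPM, with 2 of 3 tested called higher at D4 and 1 at D7. Of these markers, Siglech had 0 fragments in both controls and 11 to 51 in the injured libraries, while the summed levels of the 3 groups overlapped. Neutrophil markers summed to 52.6 to 56.7, 23.6 to 27.5 and 18.03 to 30.9 CPM, with 1 of 3 tested called higher at D4 and 1 at D7, 1 lower at D4 and Elane at 0 in every library.

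Endothelial markers were lower, with 2 of 3 called lower at D4 and 3 of 3 at D7 and sums of 447 to 509, 223 to 281 and 164 to 240.5 CPM. The shares of all genes called lower were 10.7% at D4 and 9.02% at D7. Of the 4 fibroblast markers 1 was called lower at D7, and their sums were 28001.5 to 29414, 18018 to 19524 and 13918.5 to 15625 CPM. Adipocyte markers summed to 1258 to 1424, 252 to 518 and 52.3 to 618 CPM with 0 of 5 called, and red blood cell markers to 928 to 1049, 541 to 595 and 68.2 to 451 CPM with 2 of 4 called lower at D7. Skeletal muscle markers were low and uneven, at 4.43 to 44.0, 7.31 to 84.9 and 7.98 to 22.5 CPM, with 0 of 5 called. The lower levels of the 4 called members at D7 thus stood beside more macrophage and lymphocyte signal and less endothelial and Schwann cell signal than in the controls, and the part of these cells in the result was not tested.

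The profile shared by the members was highest in control a and lowest in both D7 libraries. Averaged over the 9 standardised log2 CPM values, it was 1.17 and 0.20 in the controls, 0.47 and 0.05 at D4, and -0.90 and -0.99 at D7. Stat2 (Pearson r = 0.982 over 6 libraries), Isg15 (0.967) and Usp18 (0.956) followed it most closely, and Ifit3 the least (0.297). Members are part of the mean they are compared with here. Outside the members and the pathway lists, the genes with the most similar profile were Hip1r (r = 0.992), Fer1l5 (0.992), Aldh1a3 (0.991), Cldn24 (0.991) and Nkiras1 (0.990). Hip1r held 29.2 and 23.4 CPM in the controls and 17.6 and 18.2 CPM at D7, and Aldh1a3, which makes retinoic acid, 49.7 and 34.01 CPM and then 20.4 and 20.2 CPM. Fer1l5 and Cldn24 rested on very low counts. Fer1l5 held 0.77 and 0.42 CPM in the controls and 0.094 and 0.099 CPM at D7, and Cldn24 1.13 and 0.48 CPM and then 0.14 and 0.15 CPM. Such correlations over 6 libraries are a description, chosen as the highest of all genes tested.

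Long noncoding transcripts were counted in a second table, and 5 of them overlapped the span of a member: NONRATT006919.2 and NONRATT006918.2 at Mx1, NONRATT025453.2 at Stat2, and NONRATT020871.2 and NONRATT020872.2 at Usp18. Of these, 4 passed the filter. Within Mx1, NONRATT006918.2 had 38 and 2 fragments in the controls, 25 and 22 at D4 and 5 and 3 at D7, the same order of libraries as the gene for the controls. At Usp18, NONRATT020871.2 had 46 and 37 fragments in the controls, 44 and 36 at D4 and 21 and 30 at D7, with both D7 libraries the lowest (log2 fold change -0.79 ± 0.34 SE at D7, adjusted p = 0.217). In edgeR 0 of 4 were called in each comparison, where 10.1%, 5.79% and 0.249% of 14077 transcripts were called at D4, at D7 and between them. The unadjusted p-value was under 0.05 for 0 of 4 and DESeq2 called 0 of 4. Whether the counting used the strand is not given in the sources used here, so fragments of these transcripts and of the genes they overlap cannot be told apart.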

How the data were processed

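Per the labels and the study's methods, the authors mapped reads to the Ensembl rat genome Rnor_6.0 with HISAT2 2.0.4, after removing ribosomal reads, and assembled transcripts with StringTie 1.3.0. The deposited counts are whole fragments per gene or per lncRNA transcript, not normalized, and were used for every test. The deposited FPKM values, which the authors computed from the fragment counts, were used only to compare levels between genes. Per the labels, the build is Rnor_6.0, and gene positions come from the deposited table.

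Counts of all 6 libraries were fitted at once with edgeR 4.0.16 in R 4.3.3 (filterByExpr, TMM factors, quasi-likelihood test, Benjamini-Hochberg adjustment over all 15195 genes, or over 14077 lncRNA transcripts of 22721). Standard errors were derived from the size of each log2 fold change and the root of its F statistic. The procedure was tested on simulated data. DESeq2 1.42.0 was an alternative, with other scalings, filters, thresholds, a block and each library left out. Promoters, motifs and figures were handled in Python 3.11.15 with pandas 2.3.3, numpy 2.4.6 and matplotlib 3.10.9.

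The members and lists were chosen with earlier results of these data known. Named beside the 9 members are, per list and comparison, the 2 largest called rises and falls among genes with a mean FPKM of at least 1 in one group, and the 5 genes most correlated with the members, except for items that are not reported here. Absent from the table by these symbols were Ifna1, Ifna11, Ifnl1, Cgas, Sting1, Ticam1, Ifit1bl, Oas1b, Oas1g, Xaf1, Pecam1 and Myh4. The libraries of a group differed beyond sampling noise.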

Additional observations from a re-analysis of the deposited data

Results flagged for a closer look

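In 5 genes the 2 injured groups differed by the test of D7 against D4 itself (edgeR, adjusted p-value under 0.05 and at least 2-fold), and each was lower at D7. The log2 fold change was -1.14 for Usp18, -1.54 for Oas1k, -1.86 for Oasl, -1.30 for Gbp2 and -2.36 for Gbp4. Usp18 is the one member of this kind. Its 4 injured libraries held 15.4, 13.8, 5.96 and 7.32 CPM, without overlap between the days. With 2 libraries per group no library could be judged an outlier within its group.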

How the results depend on the processing

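The direction of the called members was the same under every alternative. In D4 against control (main value 1), 0 members were called with library totals, 0 when a change of over 2-fold was tested (glmTreat), 0 at an adjusted p under 0.01 and 2 without the fold limit. Under glmTreat 0 of 9 were also called at D7 (main value 4) and 0 between D4 and D7 (main value 1), with 0, 4 and 1 members at an unadjusted p under 0.05. Between D4 and D7, 3 were called from those groups alone, 0 at an adjusted p under 0.01 and 0 with the library letter as a replicate block. With library totals 2 members, not 5, had both D4 libraries below both controls. Leaving out 1 library gave 0 to 2 members called at D4, 3 to 7 at D7 and 0 to 3 between them.

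Further interferon-stimulated genes called numbered 5 at D4, 10 at D7 and 2 between them, against 2, 2 and 0 under glmTreat, 3, 3 and 0 at an adjusted p under 0.01, and 9 at D4 without the fold limit. Between D4 and D7 there were 11 with DESeq2, 8 from those groups alone and 0 with the replicate block. Leaving out 1 library gave 3 to 6, 5 to 13 and 0 to 7. These alternatives, and those on overlap and lncRNAs, were chosen after seeing the data.

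Signs reversed only in values not called in the fit of 6 libraries. With library totals, the log2 fold change of Ifit3 at D7 became 0.24 and that of Stat2 at D4 0.048. Leaving out 1 library, Ifit3 ranged from -1.69 to 0.70 at D7 (-1.69 without D7 a, where it was called; 0.02 without control a) and from -1.29 to 1.14 against D4. At D4, leaving out 1 library gave -0.30 to 1.37 for Irf7, -0.87 to 0.61 for Isg15, -0.45 to 1.40 for Mx1 and -1.01 to 0.68 for Mx2, each end with 1 control left out, and the ends of 1.40 and -1.01 were called. The cause was not tested. Over all genes, D7 against D4 gave 331 calls, 521 with DESeq2, 710 without the fold limit, 37 under glmTreat, 8 at an adjusted p under 0.01, and 0 without D4 a or D4 b. glmTreat gave 1683 calls at D4 and 1217 at D7 (main values 3333 and 2863), and the lack of a fold limit 6715 and 5705.

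The letters do not pair rats. Deviations of same-lettered libraries correlated at 0.01 (control and D4), 0.19 (control and D7) and -0.13 (D4 and D7). The replicate block moved the calls over all genes between D4 and D7 from 331 to 248, and to 334 with the D4 letters exchanged (1 member called), which was added after seeing the data. For the 9 members in 3 comparisons, 393 values over the alternatives kept their status as called or not called. Most of these belonged to results not called in the fit of 6 libraries. A call was lost in 24 values, among them 9 for Isg15 at D7, 7 for Usp18 between D4 and D7 and 5 for Rsad2 at D4. A call was gained in 15 values, and 9 changed sign.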
